A study of Homo sapiens with 8 samples.

Results

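Actin and tubulin are the building blocks of the actin filaments and microtubules of the cell. The genes described here were 9 named members of both families: ACTB and ACTG1 for actin, TUBA1A, TUBA1B and TUBA1C for alpha-tubulin, and TUBB, TUBB2A, TUBB4B and TUBB6 for beta-tubulin. They were taken by symbol, with no filter on their values, and 8 of the 9 were found among the 26830 genes of the expression table. Earlier results of these data were known when the genes were chosen. TUBB was not analysed here. The series compared human HEK293T cells, as labelled, in which METTL16 had been targeted with cells that carried a control guide, and asked how METTL16 affects translation across genes. METTL16 is an enzyme that methylates RNA.

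By the labels, all cells came from 1 HEK293T clone that carries Cas9, a nuclease steered to its site by a guide RNA. The identity of the cell line was not tested here, and marker levels are given below. In 3 cultures the guide targeted METTL16 (labelled sgMETTL16-1, sgMETTL16-2, sgMETTL16-3), and in 1 culture it was a negative control (sgNS). Every culture, the control too, was grown with blasticidin (10 µg/ml) and puromycin (2 µg/ml) for 1 week or more, and received cycloheximide, an inhibitor of translation, at 100 µg/ml for 5 min before harvest. Each culture gave a library of ribosome footprints, the RNA fragments of 17 to 34 nt that ribosomes protect, and a library of input RNA, so that 8 libraries were measured. Values are TPM, a share of the library corrected for transcript length, which sums to 1000000 in each library. The depth of the libraries is unknown. The 3 sgMETTL16 cultures carry guides labelled 1 to 3, and sgNS is 1 culture. A p-value for sgMETTL16 against sgNS therefore reflects no spread between sgNS cultures.

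METTL16 itself stood at 4.72, 5.25 and 4.16 TPM in the sgMETTL16 inputs and at 5.31 TPM in the sgNS input, and the difference did not pass the test (log2 change -0.68, SE 0.36, limma adjusted p = 0.482). Its footprints were listed at 0 in the 3 sgMETTL16 libraries and at 19.76 TPM in sgNS (limma adjusted p = 0.0335). That call rests on these zeros, and no gene was called in the footprints without the intensity trend, with median centring or without any 1 sgMETTL16 culture. Between 4362 and 6735 of all genes were above 0 in the sgMETTL16 footprints, and 4586 in the sgNS footprints, so a listed 0 is common there. Protein-coding genes held 25.4%, 26.3% and 20.1% of sgMETTL16 input TPM and 20.3% of sgNS input TPM. In the footprints they held 26.8%, 28.2% and 11.9% in sgMETTL16 and 26.9% in sgNS, so the sgMETTL16-3 footprint library stands apart. Of 7 HEK293 markers, NEFL and NEFM were at 0 in all inputs, NES, ENO2 and CDH2 stood at 6.13 to 12.1 TPM, and KRT8 and KRT18 at 309 TPM or more. The HEK293 list, most of it KRT8 and KRT18, summed to between 1178 and 1327 TPM in the sgMETTL16 inputs and to 687 TPM in the sgNS input. Each of 7 hepatocyte markers reached at least 10 TPM in every input, and together they summed to between 3615 and 5863 TPM in the sgMETTL16 inputs and to 2967 TPM in the sgNS input, and the part of either list in the results below was not tested. VIM, a marker of fibroblasts and mesenchymal cells, was listed at 0 in all 4 inputs, while its footprints stood at 85.2, 78.7 and 43.3 TPM in sgMETTL16 and at 188 TPM in sgNS.

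Actin monomers assemble into filaments that give a cell its shape and drive its movement. Nearly all cells make the cytoplasmic beta- and gamma-actin of ACTB and ACTG1, which differ in only a few residues. Microtubules are built from dimers of 1 alpha- and 1 beta-tubulin, and each subunit comes from a family of genes with very similar products. Cells hold actin and tubulin production in check by feedback: free actin monomers keep the MRTF coactivators away from the transcription factor SRF, whose targets include actin genes, and free tubulin dimers lead to decay of tubulin mRNAs while they are being translated, through TTC5.

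Promoters of 3 genes are shown because these genes stand for the patterns described below. ACTG1 lay above and TUBA1B below the sgNS level in all 3 sgMETTL16 inputs, and TUBB4B was the most abundant beta-tubulin analysed here. Each line gives the 250 bases before the gene's start on its own strand, from RefSeq on GRCh38.p14: chr17:81512800-81513049 (minus strand) for ACTG1, chr12:49131396-49131645 (minus strand) for TUBA1B and chr9:137241037-137241286 (plus strand) for TUBB4B. Capitals mark matches, on either strand, to the strict CArG form CCWWWWWWGG (W for A or T), to CCAAT and to TATAA, and no matches overlap. SRF binds the CArG box, and looser forms of it were not searched.
ACTG1: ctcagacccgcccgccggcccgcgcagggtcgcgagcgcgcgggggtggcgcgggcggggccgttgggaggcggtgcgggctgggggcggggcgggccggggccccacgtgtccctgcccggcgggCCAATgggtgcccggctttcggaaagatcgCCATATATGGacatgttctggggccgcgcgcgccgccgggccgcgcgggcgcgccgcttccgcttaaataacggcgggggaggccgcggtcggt
TUBA1B: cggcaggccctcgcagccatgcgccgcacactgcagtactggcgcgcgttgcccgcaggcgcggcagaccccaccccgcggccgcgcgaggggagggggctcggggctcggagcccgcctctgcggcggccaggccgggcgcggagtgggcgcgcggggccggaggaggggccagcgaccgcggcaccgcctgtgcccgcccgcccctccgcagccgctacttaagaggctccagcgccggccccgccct
TUBB4B: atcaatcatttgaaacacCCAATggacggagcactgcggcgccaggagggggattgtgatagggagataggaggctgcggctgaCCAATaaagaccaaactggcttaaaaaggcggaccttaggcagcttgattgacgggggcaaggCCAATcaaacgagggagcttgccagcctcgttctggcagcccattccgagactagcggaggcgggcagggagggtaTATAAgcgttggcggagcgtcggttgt
The ACTG1 window held a CArG box from 94 to 85 bases before the start and a CCAAT from 124 to 120 bases before it. The TUBA1B window held none of the 3 motifs. The TUBB4B window held 3 CCAAT matches and a TATAA from 27 to 23 bases before the start. Among 34796 RefSeq promoter windows of 300 bases (250 before and 50 after the start), 1.30% held the CArG box, 34.6% held CCAAT and 20.5% held TATAA. Of the muscle actin genes, which were not among the 9, ACTA1 held a strict CArG match. ACTA2 held no strict match in either of its 2 windows, which does not show that it lacks a CArG box. These are matches of letters, not sites shown to be bound.

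The actin genes were among the most abundant protein-coding transcripts. ACTB (chromosome 7, 5527148 to 5530601, GRCh38) had input levels of 1983, 1966 and 1766 TPM in sgMETTL16 and 1328 TPM in sgNS. Its rank among protein-coding genes was 4, 3 and 3 in the sgMETTL16 inputs and 10 in the sgNS input. ACTG1 (chromosome 17, 81509971 to 81512799) had 1339, 1366 and 1186 TPM in sgMETTL16 and 739.8 TPM in sgNS, with rank 8 in all 3 sgMETTL16 inputs and rank 36 in sgNS. Both genes were above the sgNS library in every sgMETTL16 input, as were 64.1% of the 10967 genes tested in the input.

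Of the alpha-tubulin genes, TUBA1B (chromosome 12, 49127782 to 49131395) had the highest input level, at 376.2, 311.5 and 252.2 TPM in sgMETTL16 and 403.2 TPM in sgNS. All 3 sgMETTL16 inputs were below sgNS. TUBA1C (chromosome 12, 49227926 to 49274600) had 262.5, 265.1 and 237.4 TPM in sgMETTL16 and 222.2 TPM in sgNS, so that all 3 lay above sgNS. TUBA1A (chromosome 12, 49184795 to 49189080), the alpha-tubulin gene best known from neurons, had 12.1, 7.28 and 5.03 TPM in sgMETTL16 and 8.07 TPM in sgNS, and the groups overlapped. The 3 genes lie within a stretch of one chromosome.

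Among the beta-tubulin genes, TUBB4B (chromosome 9, 137241287 to 137243707) had 247.4, 216.1 and 200.2 TPM in the sgMETTL16 inputs and 222.2 TPM in sgNS, with overlap. TUBB2A (chromosome 6, 3153666 to 3157544) had 41.1, 41.7 and 38.9 TPM in sgMETTL16, all above the 22.4 TPM of sgNS. TUBB6 (chromosome 18, 12307669 to 12329826) was low, at 2.84, 3.75 and 3.01 TPM in sgMETTL16, all above the 1.86 TPM of sgNS. In these bulk libraries, fewer cells of a type and less RNA per cell cannot be told apart.

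**Figure D1:**
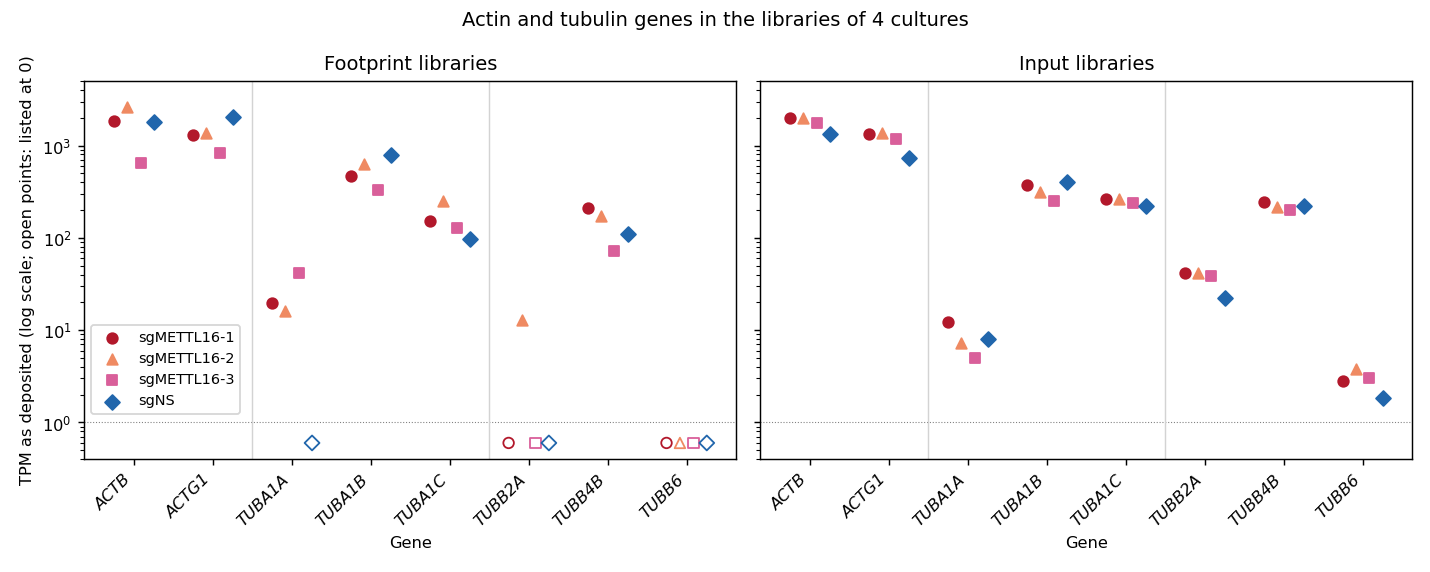
TPM of the 8 genes in footprint (left) and input (right) libraries, on a logarithmic axis, 1 point per library, with open points for genes listed at 0. TUBB6 was listed at 0 in all 4 footprint libraries, and in the inputs ACTB and ACTG1 lie at 739.8 TPM or more.

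The order of input levels was nearly the same in all cultures: ACTB, ACTG1, TUBA1B, TUBA1C, TUBB4B, TUBB2A, TUBA1A, TUBB6. TUBA1C and TUBB4B were the neighbours that did not keep their order everywhere. TUBA1C was higher in 3 of 4 libraries and equal to TUBB4B to 2 decimals in sgNS, with a mean log2 ratio of 0.16 ± 0.14 (SD, n = 4, exact sign-flip p = 0.25). Every other neighbouring pair kept its order in 4 of 4 inputs, with the smallest exact sign-flip p that 4 cultures allow. The order was taken from the means of these same inputs, so these p-values describe it and do not test it. The levels are shares per length, so this order compares transcripts and not reads.

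Near-identical genes share reads, and RSEM divides such reads by estimated abundance, so the level of a single copy is uncertain. The table held 19 pseudogenes and close copies of these genes, of which 4 reached 1 TPM in any input. POTEE, which encodes a protein with an actin-like part, was the highest of them, at 3.57 to 4.55 TPM. Sums over a family depend less on that division. Summed actin was 3322, 3332 and 2952 TPM in the sgMETTL16 inputs and 2068 TPM in sgNS. Summed alpha-tubulin was 650.8, 583.9 and 494.5 TPM in sgMETTL16 and 633.5 TPM in sgNS, and summed beta-tubulin was 291.4, 261.5 and 242.1 TPM in sgMETTL16 and 246.5 TPM in sgNS. Only the actin sum of the 3 did not overlap between the groups. On this scale, TPM as deposited, 64.1% of the 10967 genes tested in the input were also above sgNS in all 3 sgMETTL16 cultures.

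A comparison within the family does not depend on how a library is scaled. The ratio of actin to tubulin was 3.53, 3.94 and 4.01 in the sgMETTL16 inputs and 2.35 in the sgNS input, a log2 difference of 0.70. Actin made up 77.9%, 79.8% and 80.0% of the TPM of the 8 genes in sgMETTL16 and 70.1% in sgNS. The gap between the lowest sgMETTL16 culture and sgNS was wider than the range of the sgMETTL16 cultures. With 1 sgNS culture the exact two-sided permutation p was 0.25, the smallest this design allows, and TUBB and TUBB3 are not in the tubulin sum.

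Within the actins, ACTG1 stood at 0.675, 0.695 and 0.671 of ACTB in the sgMETTL16 inputs and at 0.557 of ACTB in sgNS. Within the alpha-tubulins, the ratio of TUBA1B to TUBA1C was 1.43, 1.18 and 1.06 in sgMETTL16 and 1.81 in sgNS. Over the genes in these sums, the ratio of alpha- to beta-tubulin was 2.23, 2.23 and 2.04 in sgMETTL16 and 2.57 in sgNS. None of the 4 input ratios overlapped between the groups, each with an exact permutation p of 0.25, and the single-gene ratios were picked with the values known. The share of ratios of other genes that would not overlap was not computed. Over the 28 tests of sums and ratios in all, the smallest Benjamini-Hochberg adjusted p was 0.636.

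**Figure D2:**
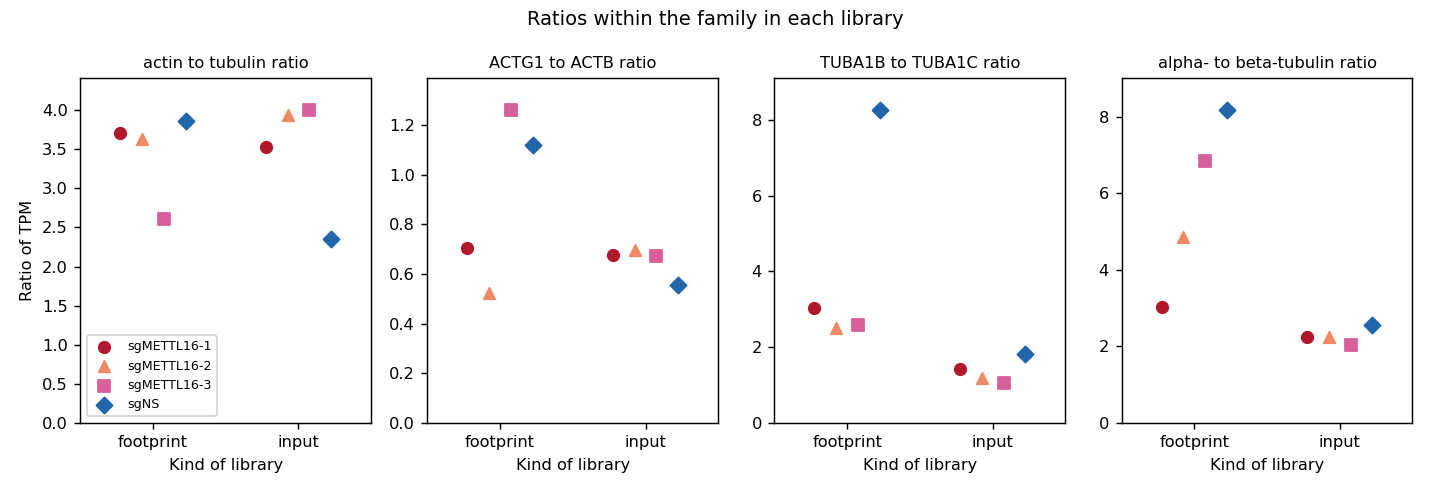
The 4 ratios within the family in footprint and input libraries, 1 point per culture on linear axes. In the input panels sgMETTL16 lies above sgNS for actin to tubulin (3.53 to 4.01 against 2.35) and below it for TUBA1B to TUBA1C (1.06 to 1.43 against 1.81).

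In the input, sgMETTL16 and sgNS cells were compared gene by gene for transcript levels. On TPM as deposited, 5 of the 8 genes were above sgNS in all 3 sgMETTL16 cultures and 1 (TUBA1B) was below it in all 3. Of the 10967 genes tested, 64.1% were above sgNS in all 3 and 5.37% below in all 3, because the sgMETTL16 inputs gave most tested genes a larger share: the median tested gene was 0.46 higher in log2. The 5 genes above sgNS are therefore near the background, and TUBA1B lay on the side that few genes took. Libraries were then centred on their median tested gene, which puts 23.4% of genes above and 34.2% below sgNS in all 3 cultures. On that scale ACTG1 and TUBB2A were higher in 3 of 3 cultures, TUBA1A, TUBA1B, TUBA1C and TUBB4B were lower in 3 of 3, and ACTB and TUBB6 were higher in 1 of 3.

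None of the 8 genes passed the test in the input. limma called 310 of 10967 genes, 173 higher and 137 lower, which is 2.83% of those tested, and 1 of the 8 genes (TUBA1B) had an unadjusted p under 0.05, against 1226 of all genes. TUBA1B had a log2 change of -0.91 (SE 0.44, limma adjusted p = 0.399). TUBA1A changed by -0.59 (SE 0.37, adjusted p = 0.617) and TUBB4B by -0.54 (SE 0.43, adjusted p = 0.765). The 2 genes in the other direction were ACTG1, at 0.28 (SE 0.47, adjusted p = 0.940), and TUBB2A, at 0.30 (SE 0.39, adjusted p = 0.905). ACTB stood at -0.01 (SE 0.49), TUBA1C at -0.33 (SE 0.43) and TUBB6 at 0.02 (SE 0.34), with adjusted p-values of 0.905 or more. The median of the 8 was -0.17 and that of all tested genes -0.06. The SE of a gene is large against these changes, and changes of low genes are understated on the log2(TPM + 1) scale.

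The scaling decided the sign for some of these genes. ACTB was at 0.52 on TPM as deposited and at 0.29 on TPM over protein-coding genes, and TUBA1C was at 0.20 on TPM as deposited. ACTG1 stayed higher in all 12 alternatives, between 0.16 and 0.93. It passed the test only under quantile normalization (limma adjusted p = 0.0001015), a setting that called more genes than the main fit. TUBA1B stayed lower in all 12, between -0.998 and -0.35, and passed without sgMETTL16-3 (limma adjusted p = 0.0499). Of all genes, 22 were called higher and 1 lower on TPM as deposited, and 288 higher and 63 lower over protein-coding genes.

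**Figure D3:**
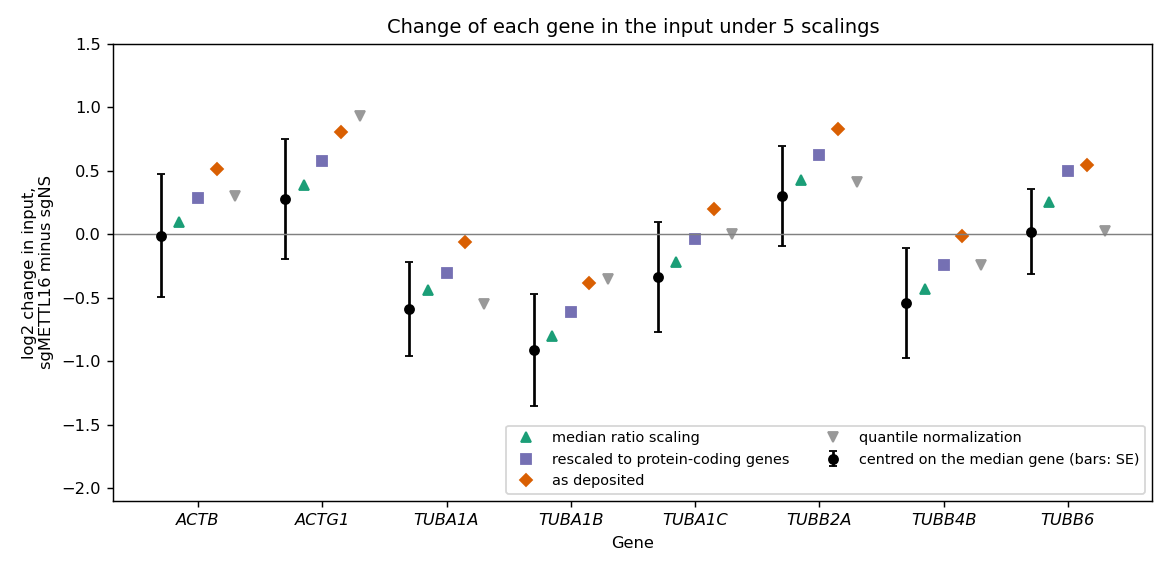
Log2 change of each of the 8 genes in the input, sgMETTL16 minus sgNS, under 5 ways of scaling the libraries, with bars for the SE of the median-centred values. ACTG1 lies above 0 and TUBA1B below 0 under each, while ACTB lies at -0.01 with median centring and at 0.52 with TPM as deposited.

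Genes that work with actin and tubulin were taken from 16 lists, and 3 of their 154 tested genes passed the test in the input, each higher in sgMETTL16. That is 1.95%, near the 1.58% called higher among all tested genes. CYR61, a secreted matrix protein and SRF target, had 8.99, 17.5 and 14.0 TPM in sgMETTL16 and 2.32 TPM in sgNS (log2 change 1.55, SE 0.37, limma adjusted p = 0.00208). FHL2, a LIM-domain protein and SRF target, had 5.40, 7.22 and 4.09 TPM in sgMETTL16 and 0.74 TPM in sgNS (1.36, SE 0.35, limma adjusted p = 0.00529). TWF1, which binds actin monomers and caps filaments, had 4.25, 12.4 and 3.23 TPM in sgMETTL16 and 1.05 TPM in sgNS (1.18, SE 0.35, limma adjusted p = 0.0331). All 3 were above sgNS in 3 of 3 cultures, as were 64.1% of tested genes on TPM as deposited and 23.4% after centring. They were named because they passed the test on these same libraries, so this adds no support. They are low against the actins.

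CYR61 and FHL2 were the 2 of 14 tested genes that rose in the list of SRF and MRTF with their targets, and no gene fell. That list had a median log2 change of 0.24, against -0.06 for all genes. SRF itself was at -0.37, its coactivators MKL1 (MRTFA) at 0.30 and MKL2 (MRTFB) at 0.08, and TTC5, the tubulin mRNA decay factor, at -0.24, none of which passed the test (limma adjusted p of 0.868 or more). TAGLN, a smooth muscle actin-binding protein that is in this list and in that of filament cross-linkers, was at -0.89 (limma adjusted p = 0.153). TWF1 was the 1 gene called, of 20 tested, in the list of monomer binding and turnover, which had a median of 0.11.

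In the other lists of actin partners no gene passed the test. The Arp2/3 complex, which starts branched filaments, had 10 tested genes and a median of 0.18, with ACTR3 at 0.69 and ARPC2 at 0.55. Filament cross-linking and tropomyosin had 20 tested genes and a median of 0.18. Formins and WASP proteins, which nucleate filaments, had 15 tested genes and a median of -0.05, with WASF3 at -0.58 and ENAH at 0.56. Non-muscle myosin II, the motor that pulls on actin, had 7 tested genes and a median of 0.22, with the light chains MYL12B at 0.89 and MYL12A at 0.74.

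The other actin genes were mostly too low to test, with 2 of 5 tested and a median of 0.42. ACTA2, the smooth muscle actin, had 42.2, 49.5 and 41.2 TPM in the sgMETTL16 inputs and 19.7 TPM in sgNS, a log2 change of 0.60 that did not pass (limma adjusted p = 0.656), and ACTA1 was at 0.24. Of the 7 smooth muscle markers, 4 were under 1 TPM in all inputs, and the list summed to between 49.4 and 59.1 TPM in sgMETTL16 and to 26.4 TPM in sgNS, most of which was ACTA2.

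In lists of tubulin and its partners none of the tested genes passed. Other tubulins included TUBA4A at -0.05, TUBB2B at -0.53 and TUBB3 at 0.12, as the tested genes of their kind (1 of 7 other alpha-tubulins and 2 of 5 other beta-tubulins). TUBB3, known as a neuronal beta-tubulin, had 144.1, 164.3 and 152.7 TPM in sgMETTL16 and 97.7 TPM in sgNS, and TUBB2B had 12.0, 10.6 and 9.09 TPM in sgMETTL16 and 10.5 TPM in sgNS. Both are among 8 neuron markers, of which the other 6 were under 1 TPM in all inputs, with STMN2, DCX, NEFL and NEFM at 0. Gamma, delta and epsilon tubulins had 3 tested genes and a median of -0.31, with TUBG1 at -0.32 and TUBG2 at -0.31. Microtubule nucleation had 9 tested genes, 1 above 0, and a median of -0.37, with MZT2A at -1.09 and MZT2B at -0.95.

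Folding of actin and tubulin needs the chaperonin TRiC, prefoldin and tubulin cofactors. The 8 subunits of TRiC had a median of 0.39, 7 of them above 0, with CCT2 at 0.54 and CCT8 at 0.48. Cofactors and prefoldin had 14 tested genes and a median of -0.13, with PFDN6 at -0.62 and TBCD at -0.53. Tubulin modifying enzymes had 9 tested genes and a median of 0.02, with TTLL5 at -0.64 and HDAC6 at -0.47. Microtubule-associated proteins had 20 tested genes and a median of 0.01, with the tubulin-binding STMN3 at -0.96 and the depolymerizing kinesin KIF2C at -0.69. Intermediate filaments, the other filament system, had 7 tested genes and a median of 0.13, with KRT19 at 0.97 and LMNB1 at -0.76.

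**Figure D4:**
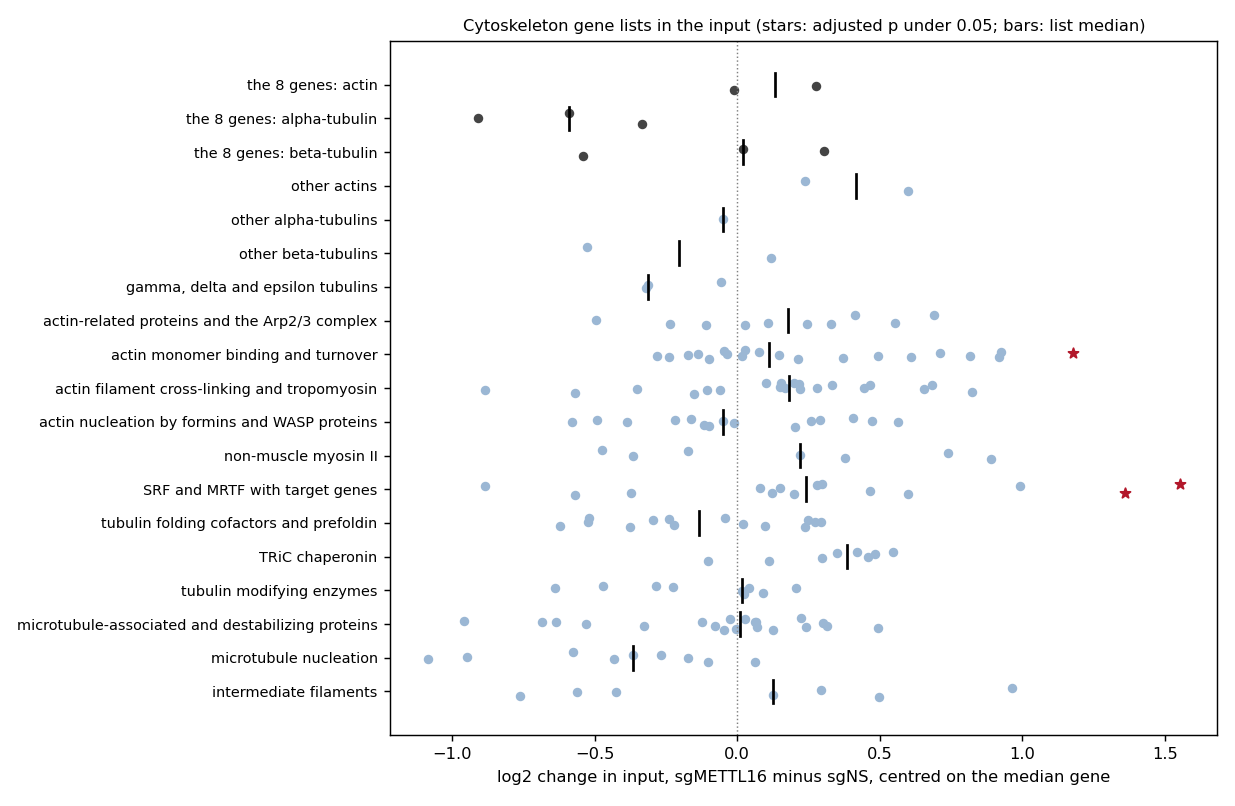
Log2 change in the input, sgMETTL16 minus sgNS, of the tested genes of each list, 1 point per gene, with a bar for the median of each list. The genes past the test, drawn as stars, CYR61 (1.55), FHL2 (1.36) and TWF1 (1.18), lie to the right.

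In the footprints the actin and tubulin genes varied more between cultures than in the input. ACTB had 1852, 2599 and 654.8 TPM in sgMETTL16 and 1819 TPM in sgNS, and the groups overlapped. ACTG1 had 1305, 1354 and 825.9 TPM in sgMETTL16, all below the 2039 TPM of sgNS. The order of both actins depended on the culture, with ACTB the higher in 2 of 4 footprint libraries. As a share of protein-coding TPM, actin was steadier, at 1.18%, 1.40% and 1.24% in the sgMETTL16 footprints and 1.43% in sgNS. The low values of sgMETTL16-3 go with its low share of protein-coding TPM. In the inputs the same share was 1.31%, 1.27% and 1.47% in sgMETTL16 and 1.02% in sgNS.

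TUBA1B footprints were at 465.4, 634.9 and 326.7 TPM in sgMETTL16, all below the 795.2 TPM of sgNS. TUBA1C footprints were at 154.0, 253.3 and 127.0 TPM in sgMETTL16, all above the 96.2 TPM of sgNS. The ratio of TUBA1B to TUBA1C was therefore 3.02, 2.51 and 2.57 in sgMETTL16 and 8.27 in sgNS, a log2 difference of -1.62 (exact permutation p = 0.25). The input ratio had the same direction. TUBA1A was listed at 19.8, 16.1 and 41.5 TPM in sgMETTL16 and at 0 in sgNS. TUBB4B was at 210.7, 172.7 and 72.4 TPM in sgMETTL16 and 108.9 TPM in sgNS, with overlap. TUBB2A was listed at 0, 13.0 and 0 in sgMETTL16 and at 0 in sgNS, and TUBB6 was at 0 in all 4. On TPM as deposited, 2 of the 8 genes were thus above sgNS in all 3 cultures and 2 below, against 7.68% and 31.2% of tested genes.

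None of the 7 genes tested in the footprints passed, while limma called 610 of 9297 genes (6.56%), 67 higher (0.721%) and 543 lower (5.84%). Unadjusted p was under 0.05 for 1 of the 7 (TUBA1A, limma adjusted p = 0.289) and for 1155 of all genes. TUBA1C was at 1.38 in log2 (SE 0.45, limma adjusted p = 0.452). For TUBB4B the log2 change was 0.90 (SE 0.42, 0.695), for ACTB 0.25 (SE 0.62, 0.780), for TUBA1B -0.23 (SE 0.32, 0.695) and for ACTG1 -0.28 (SE 0.23, 0.695). TUBB2A had 1 footprint library above 0 (limma adjusted p = 0.695). The median of all tested genes was 0.90 on this scale, and ACTB, ACTG1 and TUBA1B lay below it. The scaling used 1670 genes above 0 in all 4 footprint libraries. The median also covers genes listed at 0 in some libraries, so it is no reference for genes found in all of them. After scaling, TUBA1A, TUBA1C and TUBB4B were higher in 3 of 3 cultures, against 11.5% of all genes, and ACTG1 and TUBA1B were lower in 3 of 3, against 22.4%. The actin to tubulin ratio of footprints was 3.72, 3.63 and 2.61 in sgMETTL16 and 3.86 in sgNS, a log2 difference of -0.24 (exact permutation p = 0.5), where the input difference was 0.70.

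Translation efficiency, the ratio of footprint to input, was tested in 1 model over all 8 libraries, as a guide effect that differs between footprints and input. None of the 7 genes passed, against 53 of 8002 genes (0.662%), 39 higher (0.487%) and 14 lower (0.175%). The calls split into 8 higher and 6 lower on TPM as deposited, and 214 higher and 247 lower over protein-coding genes. With the culture as a block, 0 genes were called by limma (603 at an unadjusted p under 0.05, against 923 without the block). ACTG1 had a log2 change of -0.67 (SE 0.37, limma adjusted p = 0.797). TUBA1C was at 1.60 (SE 0.58, limma adjusted p = 0.326), TUBB4B at 1.33 (SE 0.57, 0.503), TUBA1B at 0.57 (SE 0.48, 0.846) and ACTB at 0.15 (SE 0.67, 0.901). TUBA1A and TUBA1C had an unadjusted p under 0.05, and TUBA1A rests on a listed 0 in the sgNS footprints (limma adjusted p = 0.14). TUBB2A did not pass either (limma adjusted p = 0.856). The median of all tested genes, some of them with footprints listed at 0, was 0.52. The difference of the actin to tubulin ratio between kinds was -0.94 in log2, sgMETTL16 minus sgNS (exact permutation p = 0.25).

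Footprints were also compared with input over the 4 cultures, to ask which of these genes take a larger share of ribosomes than of RNA. Both kinds are shares of their own library, so the zero point is arbitrary and values are given relative to the median protein-coding gene. On the scaled values that gene stood at -0.43, -0.24 and -1.22 in sgMETTL16 and at -1.05 in sgNS. It was lowest in sgMETTL16-3 and sgNS, whose footprints had the fewest protein-coding genes above 0 (4029 and 4338). Values relative to it are raised most in those cultures, so signs and counts of cultures depend on this reference. ACTB was 0.40, 0.73 and 0.37 above that gene in log2 in the sgMETTL16 cultures and 0.77 above it in sgNS (0.57 ± 0.21, SD, n = 4). ACTG1 was at 0.46, 0.31 and 1.28 in sgMETTL16 and 1.78 in sgNS (0.96 ± 0.69). TUBA1B was at 0.80, 1.35 and 2.18 in sgMETTL16 and 1.29 in sgNS (1.40 ± 0.57). These 3 genes were above the median gene in 4 of 4 cultures, as were 15.2% of all tested genes. TUBA1C was at -0.27, 0.26 and 0.90 in sgMETTL16 and -0.88 in sgNS, with both signs, and TUBB4B was at 0.26, 0.00 and 0.34 in sgMETTL16 and -0.70 in sgNS. TUBB2A was below the median gene in 4 of 4 cultures, as were 10.6% of all tested genes.

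**Figure D5:**
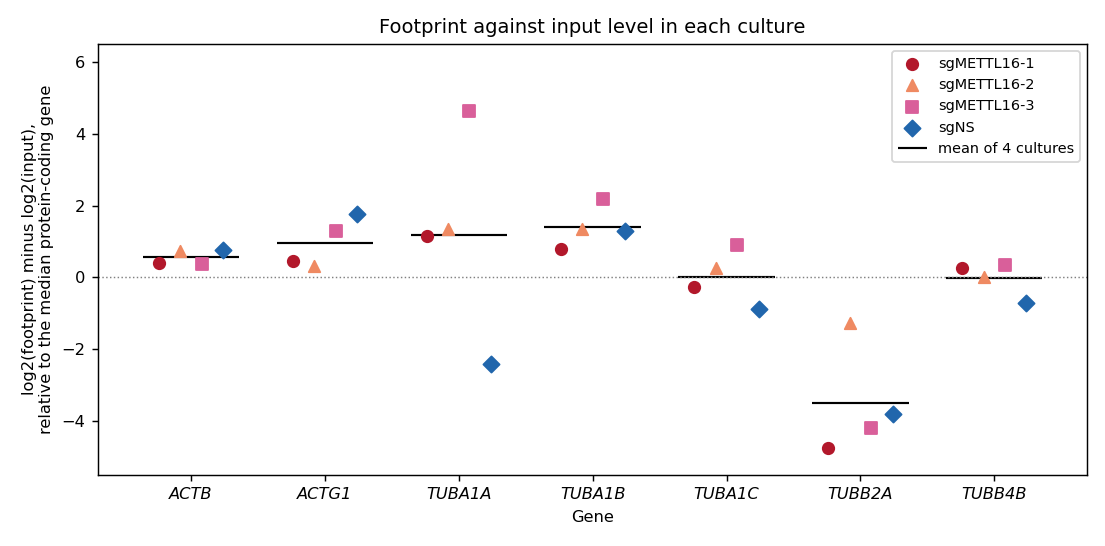
Log2 ratio of footprint to input for 7 of the genes (TUBB6 had no footprints), relative to the median protein-coding gene of each culture, 1 point per culture, with a line for the mean of 4. ACTB, ACTG1 and TUBA1B lie above 0 in all 4 cultures and TUBB2A below 0 in all 4; where footprints are listed at 0 (TUBB2A in 3 cultures, TUBA1A in sgNS) the point depends on the pseudocount of 1.

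By limma on the scaled values, TUBB2A was the 1 of the 7 genes that passed, lower in footprints than in input, at -4.24 in log2 (SE 0.93, limma adjusted p = 0.0263). Over all genes 782 of 8002 were called (9.77%), 340 higher (4.25%) and 442 lower (5.52%), or 246 higher and 200 lower on TPM over protein-coding genes. TUBB2A footprints were listed at 0 in 3 of 4 libraries, so the size depends on the pseudocount, and the call was lost with a pseudocount of 0.1 (limma adjusted p = 0.0744). It was also lost without sgMETTL16-1, without sgMETTL16-3 and without sgNS (limma adjusted p of 0.158, 0.128 and 0.0827), and without sgMETTL16-2 all of its remaining footprints are at 0. The other genes did not pass. TUBA1B was at 0.67 (SE 0.30, limma adjusted p = 0.167), TUBB4B at -0.76 (SE 0.39, 0.214) and TUBA1C at -0.73 (SE 0.40, 0.251). ACTG1 was at 0.22 (SE 0.27, limma adjusted p = 0.622), ACTB at -0.17 (SE 0.31, 0.759) and TUBA1A at 0.44 (SE 1.01, 0.807). The values of this fit are set against 0 and not against the median gene, which stood at -0.71 over all tested genes. TUBB4B and TUBA1C were thus near the median gene, and ACTB was above it.

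Ratios within the family need no zero point. TUBA1B to TUBA1C was higher in footprints than in input in 4 of 4 cultures, by 1.08, 1.09 and 1.28 in log2 in sgMETTL16 and by 2.19 in sgNS (mean 1.41, SD 0.53, n = 4, at the smallest p of an exact sign-flip test over 4 cultures). Alpha- to beta-tubulin was higher in footprints in 4 of 4 as well, by 0.44, 1.13 and 1.74 in sgMETTL16 and by 1.67 in sgNS (mean 1.25, SD 0.60, n = 4, at the same exact p). The beta-tubulin sum holds neither TUBB nor TUBB3, and TUBB3 had a mean input level of 139.7 TPM over the 4 cultures. Actin to tubulin changed by 0.08, -0.12 and -0.62 in sgMETTL16 and by 0.72 in sgNS, with no common direction (exact sign-flip p = 1.0). Reads that near-identical genes share are divided between them in both kinds of library, and the part of that division in these ratios was not tested.

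Of the folding machinery, 5 of the 8 TRiC subunits were higher in footprints than in input by the same test, against 4.25% of all genes. They were TCP1, CCT2, CCT4, CCT6A and CCT8, named after their values were seen. The calls of listed genes in this comparison were not followed through the alternatives, several of which called fewer genes. Over the 16 lists, 14 of 131 tested genes were called higher (10.7%) and 5 lower. In the list of monomer binding and turnover, 4 of 17 were called higher. CCT2 had 139.8, 140.1 and 132.1 TPM in the sgMETTL16 footprints and 117.7 TPM in the sgNS footprints. Its input levels were 13.8, 28.3 and 6.57 TPM in sgMETTL16 and 6.06 TPM in sgNS. SRF was lower in footprints than in input (-3.64 in log2, limma adjusted p = 0.0286). Its footprints were listed at 0, 4.96 and 0 in sgMETTL16 and at 13.5 TPM in sgNS, so the size depends on the pseudocount. Its inputs stood at 34.9, 35.8 and 34.4 TPM in sgMETTL16 and at 31.4 TPM in sgNS.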

How the data were processed

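The authors deposited TPM per gene for 8 libraries, made with STAR and RSEM 1.2.31 on GRCh38 per the submitters' processing notes. Read totals were not used here, so depth is unknown and no counting interval was computed. TPM are shares, so changes are relative to the other genes of a library, and no value comes from reads.

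The 4 input and 4 footprint libraries went into limma 3.58.1 (R 4.3.3, intensity trend, Benjamini-Hochberg over all genes, threshold 0.05) on log2(TPM + 1), if a gene's mean was at least 1 TPM. Inputs were centred on their median tested gene. Footprints, and both kinds in joint fits, were divided by their median ratio to the geometric mean of genes above 0 in all 4 libraries of a kind with a mean of 10 TPM or more. With 1 sgNS culture, its spread was taken to equal that of sgMETTL16. In the input fit prior degrees of freedom were Inf, so the intensity trend alone set the variance. Sums and ratios used exact two-sided permutation tests in Python 3.11.15 with SciPy 1.17.1. Scripts were tested on simulated data.

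Gene names and places came from RefSeq (GRCh38.p14): 23987 symbols matched by name, 1395 through older names, and 1448 remained unmatched. The genes and the 16 lists were chosen with earlier results of these data known. All 8 genes are given in every comparison, and of each list the genes past the threshold in the input, or otherwise the 2 with the smallest p, with SRF, MKL1, MKL2 and TTC5. An item that this rule would name is not reported here. Input and footprints of a culture carry the same guide label, which pairs them. Their deviations from the sgMETTL16 means, over 687 genes, correlated at 0.10, -0.06 and -0.06 for cultures 1, 2 and 3, so the values themselves showed no pairing.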

Additional observations from a re-analysis of the deposited data

How the results depend on the processing

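The number of genes called in the input was 23 on TPM as deposited, 53 with median ratio scaling and 532 with quantile normalization, against 310, and ranged from 110 to 664 with 1 sgMETTL16 culture left out. Of the 8 genes, 1 was called with quantile normalization (ACTG1) and 0 to 1 with a culture left out (TUBA1B). ACTB turned positive in the input at 0.29 (pseudocount of 10), 0.13 (no filter), 0.082 (mean TPM of 10 or more), 0.52 (as deposited), 0.10 (median ratio), 0.30 (quantile) and 0.29 (protein-coding genes), and ranged from -0.14 to 0.10 with a culture left out (0.01 without sgMETTL16-1, 0.10 without sgMETTL16-2). TUBB6 turned to -0.075 (pseudocount of 10) and -0.13 (without sgMETTL16-3), and TUBA1C to 0.20 (as deposited) and 0.0004 (quantile). Footprint calls numbered 146 at a mean TPM of 10 or more, against 610. They numbered 0 by limma with median centring, with no trend and with any sgMETTL16 culture left out, where 1158 genes (no trend), 1189 (centring) and 1348 to 1945 (a culture left out) had an unadjusted p under 0.05. With centring ACTB turned to -2.44, TUBA1C to -1.31, TUBB2A to -0.86 and TUBB4B to -1.79, and ACTB to -0.31 as deposited. Median centring is poorly defined there, as the median gene of 2 footprint libraries is at 0.

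Translation efficiency calls numbered 711 and 106 (pseudocounts of 0.1 and 10), 432 (no filter), 102 (mean TPM of 10 or more), 14 (as deposited; 8 higher), 461 (protein-coding genes; 214 higher) and 7 (no trend), against 53. They were 0 by limma with median centring (731 at an unadjusted p under 0.05), 0 with a culture left out (1100 to 1794) and 0 with the replicate block (603). TUBA1A was the 1 gene called with a pseudocount of 0.1 (8.52, limma adjusted p = 0.0334). ACTB turned to -0.83 and TUBA1B to -0.41 as deposited, and ACTB to -0.23 over protein-coding genes and -0.11 without sgMETTL16-2 (up to 0.61 without sgMETTL16-3). Footprint against input calls numbered 284 and 1385 (pseudocounts of 0.1 and 10), 327 (mean TPM of 10 or more), 144 (centring), 446 (protein-coding genes) and 599 (replicate block, which pairs the libraries of a culture), and 57 to 296 with a culture left out. TUBB2A kept its call with the block (limma adjusted p = 0.0304), and 0 of the genes were called with a pseudocount of 0.1, a mean TPM of 10 or more (where TUBB2A was not tested), centring or any culture left out. TUBA1A turned to -0.27 (pseudocount of 0.1). With a culture left out it ranged from -0.41 (without sgMETTL16-3) to 1.52, ACTB from -0.38 to 0.25 (without sgMETTL16-3) and ACTG1 from -0.19 (without sgNS) to 0.47.

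Of the sums, alpha-tubulin footprint to input turned to 0.31 and beta-tubulin input to -0.13 over protein-coding genes, and beta-tubulin footprint to input to -0.26 over all listed genes. Over the cultures, footprint minus input of actin to tubulin ranged from -0.0081 (without sgMETTL16-1) to 0.22, and that of actin from -0.056 (without sgMETTL16-2) to 0.36, with a culture left out. Of the values of single genes under the alternatives, 304 kept their direction and side of the threshold, 26 changed direction, 3 gained and 5 lost a call. The cause of these changes was not tested. The unknown depth limits every footprint listed at 0.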

Other observations

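The genes whose input pattern was most like that of ACTB, among 791 protein-coding genes with a mean input TPM of 50 or more, were UBE2Z, TMED9, HSPA1A and ENO1. Likeness was the root mean square distance of log2(TPM + 1), centred on its mean over the 4 inputs, and was 0.0165 for UBE2Z, 0.0223 for TMED9, 0.0251 for HSPA1A and 0.0296 for ENO1. ENO1, a glycolytic enzyme, had 542.7, 519.7 and 468.4 TPM in the sgMETTL16 inputs and 368.2 TPM in sgNS. For TUBA1B they were RPS14 (0.0239), FBL (0.0436), MYBL2 (0.0533) and RPS19 (0.0551). RPS14, a ribosomal protein gene, had 393.8, 332.5 and 272.3 TPM in sgMETTL16 and 441.6 TPM in sgNS, below sgNS in all 3 cultures as TUBA1B was. The 4 points of each gene share their libraries, so these distances are a description.

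Arp2/3 subunits ARPC3 and ARPC5 were higher in footprints than in input, the 2 genes called of 9 tested in that list. Of all tested genes, 4.25% were called higher. Both subunits were named after their values were seen, and their calls were not followed through the alternatives. ARPC5 had 43.6, 50.4 and 54.9 TPM in the sgMETTL16 footprints and 55.1 TPM in the sgNS footprints. Its inputs stood at 7.33, 14.7 and 4.64 TPM in sgMETTL16 and at 3.71 TPM in sgNS.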
